A study of Drosophila melanogaster with 12 samples.

Results

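The Jonah genes of Drosophila encode secreted serine proteases of the trypsin and chymotrypsin kind, and 10 of them were followed here through RNA and ribosome footprints: Jon25Bi, Jon25Bii, Jon25Biii, Jon44E, Jon65Aiii, Jon65Aiv, Jon66Ci, Jon66Cii, Jon99Ci and Jon99Fi. They were taken by symbol from a fixed list, after transcript identifiers had been mapped to genes and the counts of all transcripts of a gene had been summed. These 10 genes were among 14405 genes in the table, of which 12759 coded for protein, and the annotation held 16 Jonah genes in all. The samples were whole female flies, either wild-type (White Dahomey) or carrying the P-element insertion dC53EY22749 in Polr3D, a gene for a subunit of RNA polymerase III. The mutants were heterozygous according to the study's text (Polr3D EY/+), and both groups were analysed by Ribo-Seq, which sequences the mRNA fragments that ribosomes protect from RNase, and by RNA-Seq. The age of these flies is not given in the sources used here. The labels do not say whether replicates came from separate cultures, so the p-values measure only the spread between these samples.

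Jonah proteases are made by cells of the midgut and are released into the gut lumen, where such enzymes cleave dietary protein. Each gene is named after the band of the polytene chromosomes in which it lies, and several lie side by side as small clusters of related copies. Like other digestive proteases of this family they are made as precursors with a signal peptide, so that their mRNAs are translated at the endoplasmic reticulum. In whole flies, fewer midgut cells and less RNA per midgut cell cannot be told apart.

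Levels are given as CPM, the counts of a gene per 1000000 protein-coding counts of its library. The 6 Ribo-Seq libraries held 1127599 to 3192166 protein-coding counts, and Polr3D EY/+ replicate 2 was the deepest. The 5 RNA-Seq libraries with a column in the table, 2 wild-type and 3 mutant, held 24299908 to 28718489. Polr3D itself was lower in the RNA of every mutant library, at 30.2 ± 0.528 CPM (SD, n = 3) against 57.7 ± 8.42 CPM (n = 2) in wild-type (log2 change -0.92, SE 0.25, DESeq2 adjusted p = 0.0294). Some libraries stood apart from their groups. The summed RNA of 7 male markers was 19.6 CPM in Polr3D EY/+ replicate 1 and at most 0.123 CPM in the other RNA libraries, and 4 of these markers (Acp26Aa, SP, dj and Acp62F, made in the male reproductive tract) were called higher in mutant RNA. In footprints the same sum was 48.8 CPM in wild-type replicate 2, 25.2 CPM in Polr3D EY/+ replicate 3 and at most 3.76 CPM elsewhere. The part of these libraries in the results was not tested, and the calls, medians and correlations of the members are also given without them where they move.

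The 10 genes were short and similar in size, with coding lengths between 774 and 828 bases. In 7 of them the main transcript had a single exon and in 3 (Jon65Aiii, Jon65Aiv and Jon99Ci) it had 2 exons. On the BDGP6 (dm6) assembly, Jon25Biii (2L:4949941-4950767), Jon25Bii (2L:4952243-4953136) and Jon25Bi (2L:4954279-4955144) lay in a row on the minus strand, 1475 and 1142 bases apart. Jon65Aiv (3L:6039155-6040135) and Jon65Aiii (3L:6050757-6051690) lay on the plus strand with 10621 bases between them. Jon66Ci (3L:8391540-8392377) and Jon66Cii (3L:8392820-8393649) pointed towards each other across 442 bases. Jon99Ci (3R:29925226-29926189) lay 610 bases from Jon99Cii, and Jon99Fi (3R:30488963-30489895) lay 1034 bases from Jon99Fii. Jon44E (2R:8691448-8692844) had no Jonah neighbour and was the only one whose span overlapped another gene, the antisense gene CG8586. Of the 10 genes, 8 had a single transcript in the table. The second transcripts of Jon25Bii and Jon44E had no footprint counts in any library, against 0 to 323 and 21 to 72 RNA counts, so nearly all counts of these genes came from 1 transcript each. Salmon, which made the counts, divides reads between similar transcripts. How alike the Jonah sequences are was not analysed here, so each gene's counts are uncertain to the extent that reads were shared.

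The members spanned a wide range of expression, from some of the most abundant mRNAs of the fly to an almost silent gene. Between genes, levels were compared as CPM per kilobase of coding length. Jon65Aiv was the most abundant in RNA, with a mean of 3846 ± 337 CPM per kb (SD, n = 5 libraries of both genotypes), followed by Jon65Aiii at 2137 ± 299. Jon25Biii (1355 ± 215) and Jon25Bi (1156 ± 123) came next, and their ranges over libraries overlapped. Jon25Bii stood at 428 ± 29.0 and Jon99Ci at 207 ± 31.2. Jon99Fi (122 ± 13.0) and Jon44E (86.7 ± 23.2) again had overlapping ranges. Jon66Ci was far lower, at 1.91 ± 0.378, and Jon66Cii was at 0.136 ± 0.0498. All other neighbours in this order were separated in every one of the 5 libraries.

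The order of the footprint levels differed in a few places. Jon65Aiv was again first, with 6355 ± 800 CPM per kb (SD, n = 6), and Jon65Aiii second with 3205 ± 355. Jon25Bi (1571 ± 228) and Jon25Biii (1463 ± 323) overlapped, as did Jon25Bii (634 ± 123) and Jon99Fi (447 ± 69.1), and Jon99Ci (210 ± 42.1) and Jon44E (146 ± 58.9). Jon99Fi thus stood below Jon99Ci in RNA and above it in footprints in every library. Jon66Ci had 52.8 ± 17.7 CPM per kb of footprints, closer to Jon44E than it was in RNA. By plain CPM, Jon65Aiv ranked 23rd of 12759 coding genes in RNA and 16th in footprints. Summed over the 10 members, RNA was 6882 to 8166 CPM in wild-type and 7239 to 7765 CPM in mutant libraries. Summed footprints were 9146 to 12690 CPM in wild-type and 11679 to 12504 CPM in mutants, and these ranges overlapped.

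**Figure D1:**
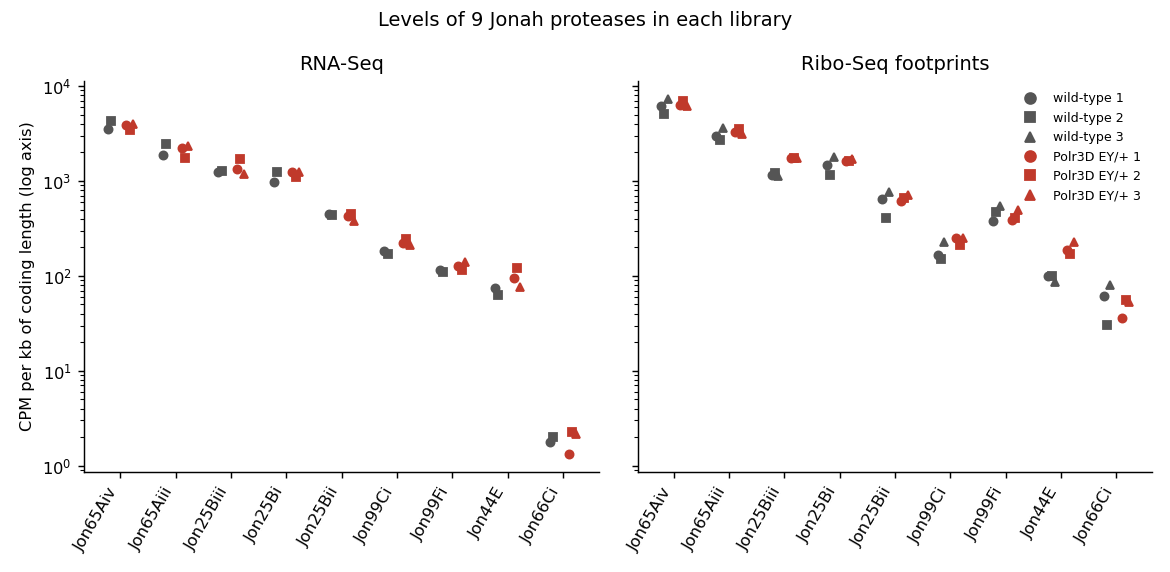
Level of 9 Jonah proteases in each library, as CPM per kb of coding length on a log axis, in RNA (left, 5 libraries) and footprints (right, 6 libraries), with symbols for replicates and colours for genotype (grey, wild-type; red, Polr3D EY/+). Jon65Aiv was highest in both panels, and Jon66Ci was lowest in both, at 1.91 CPM per kb in RNA and 52.8 in footprints; Jon66Cii is left out because it was near or at 0.

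Jon66Cii was barely detected. It had 4 and 3 RNA counts in the wild-type libraries and 1, 3 and 3 in the mutant libraries. Its footprints were 0 in 5 libraries and 1 count in Polr3D EY/+ replicate 3. A count of 0 allows up to 3 counts, or 0.940 to 2.66 CPM in a Ribo-Seq library, so no fold is given for this gene, and intervals and floors cover counting error only. Its neighbour Jon66Ci had 39 and 38 RNA counts in wild-type and 25, 51 and 42 in mutants, or 1.03 to 1.78 CPM. In footprints Jon66Ci had 72, 27 and 81 counts in wild-type and 32, 140 and 49 in mutants, or 23.9 to 61.8 CPM.

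The footprint to RNA ratio of a replicate is the CPM of its footprints over the CPM of its RNA, and was available for 2 wild-type and 3 mutant replicates. To compare genes, the mean footprint CPM over these replicates was divided by the mean RNA CPM, here called the pooled ratio. Over 7463 genes whose RNA averaged 10 CPM or more, the median pooled ratio was 0.775, with 0.444 and 1.24 at the lower and upper quartiles. All 9 members with a ratio lay above that median. Jon99Ci was the lowest, at 0.996 (the 63.4th percentile of those genes), then Jon25Biii at 1.13, Jon25Bi at 1.32, Jon25Bii at 1.42, Jon65Aiii at 1.46, Jon65Aiv at 1.60 and Jon44E at 1.82. Jon99Fi stood out with 3.51 (the 98.2th percentile), and its ratio was 3.31 and 4.30 in wild-type and 3.02, 3.46 and 3.54 in mutants. The 5 other Jonah genes with a ratio were also above the median, from 1.82 for Jon99Cii to 5.26 for Jon99Fii, the neighbour of Jon99Fi. A ratio above 0.775 was not particular to Jonah genes. List medians were 1.20 for midgut trypsins (11 genes), 1.62 for carbohydrate and lipid enzymes (17) and 3.38 for lysozymes (4). They were 1.26 for enterocyte markers (6) and 1.48 for chorion genes (8).

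Jon66Ci had by far the highest ratio of the family. It was 34.4 (95% counting interval 23.0 to 52.1) and 15.4 (9.05 to 25.9) in the wild-type replicates. In the mutants it was 27.3 (15.7 to 48.0), 24.7 (17.8 to 34.7) and 24.4 (15.8 to 37.7). The intervals are wide because the RNA counts were low, but the lowest lower bound, 9.05, was still above every ratio of the other 13 Jonah genes shown. They do not cover reads divided between similar Jonah transcripts, and the effect of such reads on the ratio was not tested. Among the 9221 genes whose RNA averaged 1 CPM or more, whose median pooled ratio was 0.820, 15 had a higher pooled ratio than Jon66Ci. The ratio in each replicate was a description and no test was made between genes.

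**Figure D2:**
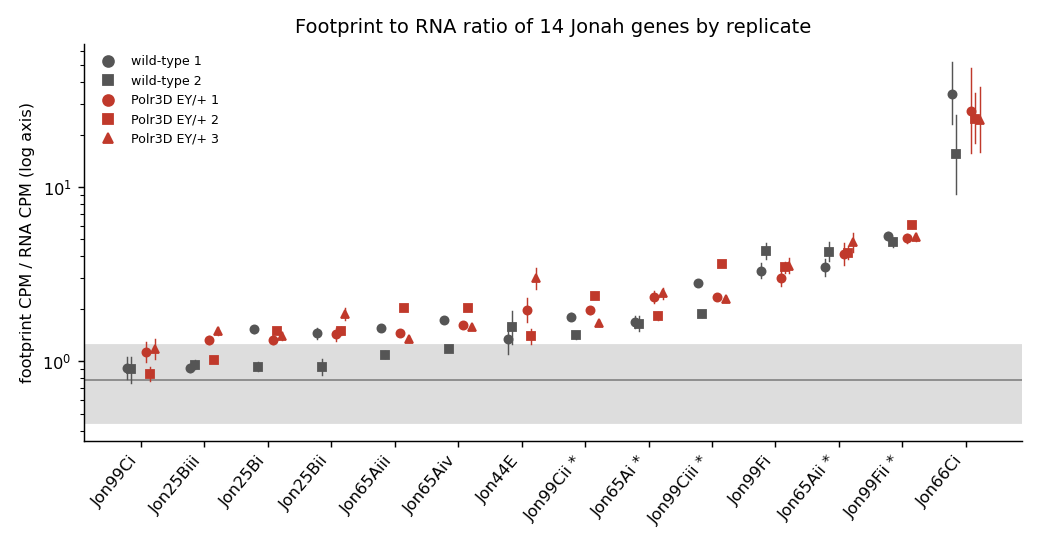
Footprint to RNA ratio (log axis) of 14 Jonah genes in each replicate, with 95% counting intervals, ordered by the ratio of mean levels; an asterisk marks Jonah genes outside the list of 10. The grey band runs from 0.444 to 1.24 and the line is the median, 0.775, over 7463 genes: every point lies above the line, and Jon66Ci lies between 15.4 and 34.4.

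The comparison of genotypes asked which of these mRNAs changed in amount, in footprints or in the relation of both when Polr3D was reduced. Footprints of Jon25Biii and Jon44E rose in the mutants, and no member fell. In RNA and in translation efficiency (the interaction of genotype and assay) none of the 10 members passed the threshold. The model was DESeq2 with terms for replicate, assay, genotype and genotype by assay on 10 libraries, without wild-type replicate 3, and calls were made at an adjusted p under 0.1. It called 2 of 10 members higher in footprints, against 0.285% of 14368 genes called higher, 0.0766% called lower and 0.362% called in either direction. For RNA, 1.02% of 13253 genes were called, 0.89% as higher and 0.128% as lower. For translation efficiency 0.303% of 13533 were called, 0.00739% as higher and 0.296% as lower. This split by direction over all genes did not hold in other fits: RNA calls were 118 higher and 17 lower here, 18 and 23 with no replicate block, 7 and 8 with edgeR, and 4 and 33 without wild-type replicate 2. In RNA 2 members (Jon44E and Jon99Ci) had an unadjusted p under 0.05 (all genes, 231 of 14368). In translation efficiency 1 member (Jon25Biii) had one (all genes, 237 of 14368). With edgeR none of the members was called in either.

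Jon25Biii, the third gene of the 25B cluster, had footprint values that lay close together within each genotype. They were 894, 949.8 and 873 CPM in wild-type and 1358, 1363 and 1359 CPM in mutants. The groups did not overlap, and the mutant mean of 1359.8 ± 2.63 CPM (SD, n = 3) was 1.50-fold that of wild-type (906 ± 39.6 CPM, n = 3). This mutant SD is smaller than counting error alone would give for 1547, 4350 and 1616 counts, so it understates the spread. The log2 change, fitted without wild-type replicate 3, was 0.64 (SE 0.15, DESeq2 adjusted p = 0.0297). Its RNA was 975 and 994 CPM in wild-type and 1028, 1337 and 912 CPM in mutants, so that mutant libraries lay on both sides of the wild-type ones (log2 change 0.19, SE 0.15). The ratio was 0.916 and 0.955 in wild-type and 1.32, 1.02 and 1.49 in mutants, which did not overlap. The change in translation efficiency was 0.45 on the log2 scale (SE 0.21), with an unadjusted p of 0.0286 and an adjusted p of 1.0, and did not pass.

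Jon44E had the larger footprint change. Its footprints were 81.6, 80.7 and 69.5 CPM in wild-type and 154, 138 and 187 CPM in mutants. Every mutant library was above every wild-type library, with means of 159 ± 24.8 and 77.2 ± 6.75 CPM (SD, n = 3 each), a 2.06-fold difference. The fit without wild-type replicate 3 gave a log2 change of 1.01 (SE 0.27, DESeq2 adjusted p = 0.0412). RNA of Jon44E was 61.1 and 51.2 CPM in wild-type and 78.1, 99.4 and 62.5 CPM in mutants. These groups did not overlap either, but the change did not pass the test across all genes (log2 change 0.52, SE 0.24, unadjusted p = 0.0306, adjusted p = 1.0). Its translation efficiency differed by 0.49 (SE 0.34). The overlapping antisense gene CG8586 had a log2 footprint change of -0.00065 (SE 0.20).

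Both calls depended on which libraries were in the fit, while their direction did not. When wild-type or mutant replicates, or single libraries, were left out in turn (7 fits), the log2 footprint change of Jon25Biii stayed between 0.55 and 0.74 and it was called in 4. It was lost without Polr3D EY/+ replicate 1 (adjusted p = 0.723), without Polr3D EY/+ replicate 3 (0.118) and without wild-type replicate 2 (0.832). That of Jon44E stayed between 0.85 and 1.21, and it was called in 1 of 7, the fit without the deep Ribo-Seq library of Polr3D EY/+ replicate 2 (adjusted p = 0.0998). For Jon44E the adjusted p was 1.0 without Polr3D EY/+ replicate 1, 0.185 without Polr3D EY/+ replicate 3, 0.451 without wild-type replicate 1 and 1.0 without wild-type replicate 2, and it was not given by DESeq2 without Polr3D EY/+ replicate 2. The fits did not adjust p over the same number of genes. Footprint tests covered 1262 genes without Polr3D EY/+ replicate 2 and 2357 without wild-type replicate 1, against 14368 in the main fit. The counts of calls therefore compare unlike tests. When RNA-Seq of Polr3D EY/+ replicate 1 was left out, which held the male-marker RNA, Jon25Biii was called (0.0355) and Jon44E was not (0.177). With all 11 libraries both were called (adjusted p = 0.000498 for Jon25Biii and 0.000581 for Jon44E). In Ribo-Seq fitted alone neither was called, in a fit that called 0 of 12078 genes and gave 42 an unadjusted p under 0.05. With edgeR, Jon44E was called (adjusted p = 0.0402) and Jon25Biii was not (0.152).

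**Figure D3:**
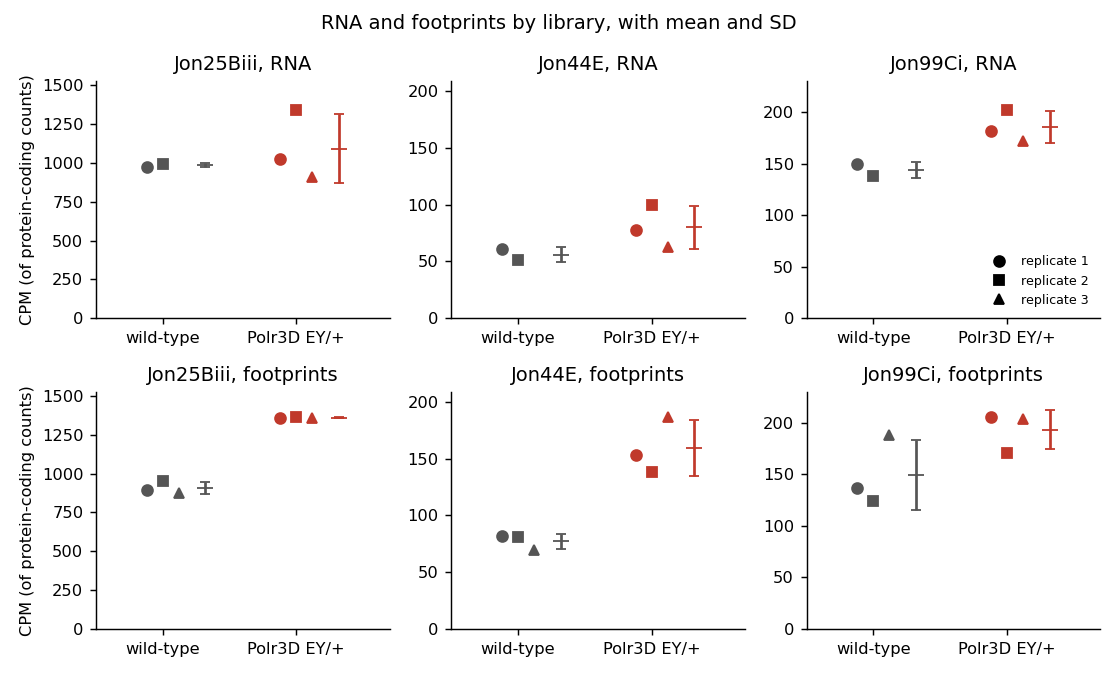
CPM of Jon25Biii, Jon44E and Jon99Ci in RNA (top) and footprints (bottom) in each library, with the mean and SD of each group (n = 2 for wild-type RNA, n = 3 otherwise) on axes that start at 0. Footprints of Jon25Biii (873 to 949.8 against 1358 to 1363 CPM) and Jon44E (69.5 to 81.6 against 138 to 187 CPM) do not overlap between genotypes, and those of Jon99Ci do.

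Jon99Ci was the next member by footprint change and did not pass in the main model. Its footprints were 136, 124 and 188 CPM in wild-type and 205, 171 and 204 CPM in mutants. The overlap came from wild-type replicate 3, the library that the model leaves out, and the fitted log2 change was 0.58 (SE 0.18, DESeq2 adjusted p = 0.229) without it and 0.38 with it. RNA of Jon99Ci was 149 and 138 CPM in wild-type and 182, 202 and 172 CPM in mutants, all higher (log2 change 0.37, SE 0.16, adjusted p = 1.0). When transcripts were fitted one by one, as deposited, its transcript FBtr0085511 was called in footprints (adjusted p = 0.0273), beside those of Jon25Biii (0.00328) and Jon44E (0.0370). How many of all transcripts that fit called is not given here, so these calls cannot be weighed against it. Without the replicate term Jon99Ci was called as well (adjusted p = 0.0299), in a fit that called 58 of 9898 genes in footprints.

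Jon99Fi behaved differently from Jon99Ci in footprints. Its RNA was 91.4 and 87.3 CPM in wild-type and 102, 93.5 and 113 CPM in mutants, which did not overlap (log2 change 0.10, SE 0.14). Its footprints were 302, 375 and 438 CPM in wild-type and 309, 323 and 401 CPM in mutants, which did (log2 change -0.05, 95% interval -0.35 to 0.24). Whether the changes of both genes differ from each other was not tested.

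The most abundant members varied more between wild-type replicates than between genotypes. Footprints of Jon65Aiv were 5005, 4106 and 5981 CPM in wild-type and 5147, 5705 and 5056 CPM in mutants. All mutant values lay inside the wild-type range, and the log2 change was 0.23 (95% interval -0.07 to 0.54). Its RNA was 2897 and 3498 CPM in wild-type and 3200, 2818 and 3220 CPM in mutants (log2 change -0.06, interval -0.37 to 0.24). Jon65Aiii had the same order of libraries as Jon65Aiv in both assays, with footprints of 2439, 2222 and 3010 CPM against 2671, 2900 and 2566 CPM (log2 change 0.22, interval -0.13 to 0.56). Its RNA was 1563 and 2034 CPM against 1833, 1444 and 1908 CPM (log2 change -0.08, interval -0.42 to 0.25).

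The other genes of the 25B cluster did not pass the test either. Jon25Bi had footprints of 1176, 928 and 1436 CPM in wild-type and 1301, 1309 and 1372 CPM in mutants (log2 change 0.32, interval -0.00034 to 0.65). Jon25Bii had 537, 336 and 634 CPM against 506, 551 and 585 CPM (log2 change 0.37, interval -0.03 to 0.77). In both genes the lowest library was wild-type replicate 2 and the highest was wild-type replicate 3. Leaving out wild-type replicate 1 in both assays left replicate 2 as the only wild-type sample, assumed to vary like the mutants. The log2 footprint changes were then 0.49 for Jon25Bi and 0.80 for Jon25Bii. RNA of Jon25Bi was 772 and 997 CPM against 987, 873 and 983 CPM (log2 change 0.06, SE 0.16). RNA of Jon25Bii was 371 and 364 CPM against 355, 369.8 and 313 CPM (log2 change -0.08, SE 0.20). For Jon66Ci the intervals were too wide for a statement at this depth (log2 footprint change -0.03, interval -0.84 to 0.78).

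**Figure D4:**
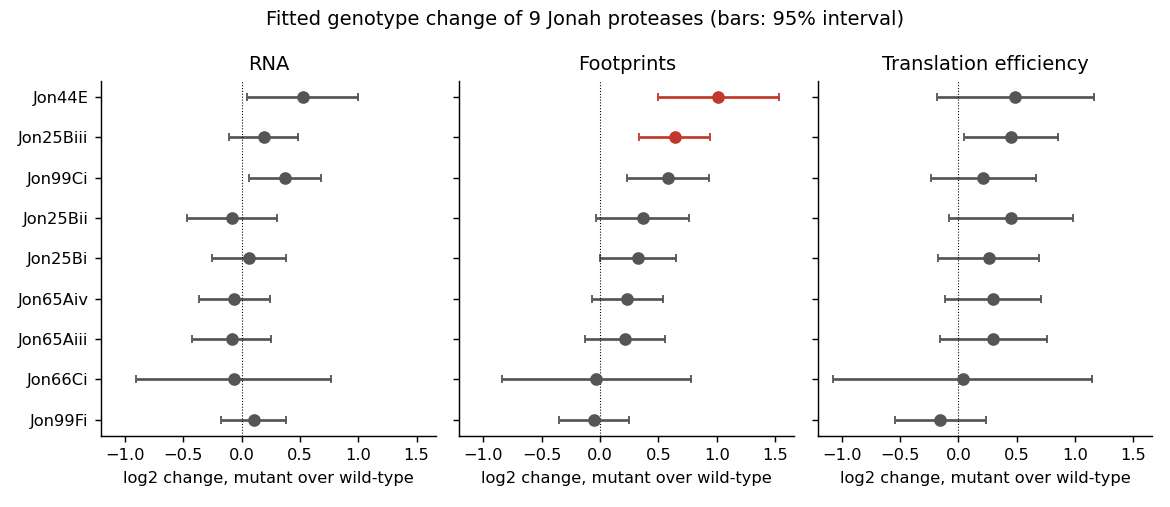
Fitted log2 change (mutant over wild-type) of 9 Jonah proteases in RNA, footprints and translation efficiency, with 95% intervals, from the model of 10 libraries; red marks an adjusted p under 0.1. Only the footprint changes of Jon25Biii (0.64) and Jon44E (1.01) are red, and the interval of Jon66Ci is the widest in each panel.

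Of the 10 members, 8 averaged 10 CPM or more in both assays. Their median log2 footprint change was 0.35 and 7 of the 8 were positive, where 6567 genes at that level had a median of -0.01 with 47.1% positive. With all 11 libraries the members' median was 0.18, and it was also 0.18 without wild-type replicate 2, with 7 of 8 positive in both. It was 0.57 without wild-type replicate 1. Their median in RNA was 0.08 (all genes, 0.00), and 0.0076 when RNA-Seq of Polr3D EY/+ replicate 1 was left out. In translation efficiency it was 0.30 (all genes, -0.02), with 0.098 without wild-type replicate 2 and 0.48 without wild-type replicate 1. Groups that did not overlap were found in RNA for 3 of these 8 members (Jon44E, Jon99Ci and Jon99Fi, all higher), where 4.63% of the 6567 genes were higher and 3.88% lower in this way. They were found in footprints for 2, both higher (all genes, 5.16% higher and 6.79% lower), and in the ratio for 1, Jon25Biii, which was higher (all genes, 7.05% higher and 9.53% lower). Jon66Cii RNA was lower in the mutants without overlap, on at most 4 counts.

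Wild-type replicate 1 and Polr3D EY/+ replicate 2 were the 2 lowest RNA libraries for Jon25Bi, Jon65Aiii and Jon65Aiv. These were 3 of the 8 expressed members, a share near the 39.4% of 6567 genes for which this held. Jon25Biii, Jon44E, Jon99Ci and Jon66Ci were instead highest in Polr3D EY/+ replicate 2. Over the 11 libraries, the most alike pairs of expressed members were Jon44E with Jon25Biii (Pearson r = 0.93 of log2 levels centred within each assay) and Jon65Aiv with Jon65Aiii (r = 0.93). Other member pairs ran down to -0.29 (Jon99Fi with Jon25Biii), and Jon25Biii had 0.20 with Jon25Bi and 0.22 with Jon25Bii. In the 8 libraries other than those with the most male-marker counts, the pairs with r = 0.93 were again high (0.95 and 0.96). These libraries share genotype and depth differences, and the values are a description.

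Outside the list of 10, the annotation had 6 further Jonah genes: Jon65Ai, Jon65Aii, Jon74E, Jon99Cii, Jon99Ciii and Jon99Fii. None was called by DESeq2 or edgeR in any of the 3 contrasts. In footprints 2 of them (Jon65Ai and Jon99Cii) had an unadjusted p under 0.05 (all genes, 420 of 14368), and in RNA and translation efficiency 0 had. Of the 5 with at least 10 CPM in both assays, 4 had footprints that did not overlap and were higher in mutants (all genes, 5.16% higher and 6.79% lower). Jon65Ai had 468, 387 and 460.3 CPM in wild-type and 634, 612 and 629 CPM in mutants (log2 change 0.60, SE 0.18, DESeq2 adjusted p = 0.174). Jon99Cii had 1500, 1481 and 1451 CPM against 2137, 2113 and 1889 CPM (log2 change 0.46, SE 0.16, adjusted p = 0.575). Jon99Ciii, the most abundant of the 6 in RNA, had 2372, 2124 and 2324 CPM against 2563, 3047 and 2705 CPM (log2 change 0.27, SE 0.19). Jon99Fii had 1223, 1239.8 and 1104 CPM against 1362, 1523 and 1549.9 CPM (log2 change 0.23, SE 0.12). Jon65Aii was the exception, at 231 to 251 CPM against 208 to 259 CPM. RNA groups overlapped in all 5. Jon74E, the sixth gene, had 1.39 to 2.12 CPM of RNA in wild-type and 3.37 to 3.59 CPM in mutants, with 0 to 8 footprint counts.

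Changes between genotypes were also taken for other products of the midgut. Of 12 trypsins, which cleave protein like the Jonah enzymes, none was called by DESeq2 or edgeR in footprints. Of these trypsins, 3 had an unadjusted p under 0.05 (all genes, 420 of 14368). Their median log2 footprint change was 0.31 over 11 genes, and the most abundant, alphaTry, had 0.31 (SE 0.16). Of 19 enzymes of carbohydrate and lipid digestion 1 was called, the maltase Mal-A8 (0.85, SE 0.22, adjusted p = 0.0412), which with Mal-A7 was also called in RNA (0.71 and 0.72). With edgeR, Mal-A8 was called in footprints and none of the 19 in RNA. The median of that list was 0.14 over 17 genes, and Amy-p, an amylase, had -0.12. Of 6 lysozymes, which break down bacterial cell walls, LysB (1.20, SE 0.25, adjusted p = 0.00220) and LysD (0.83, SE 0.13, adjusted p = 5.1e-06) were called in footprints. Summed lysozyme footprints were 1193 to 1411 CPM in wild-type and 1919.9 to 2299 CPM in mutants. Median log2 changes in translation efficiency were 0.33 for trypsins (11 genes), 0.18 for carbohydrate and lipid enzymes (17) and 0.52 for lysozymes (4). That of the other Jonah genes (5) was 0.25. The members' median of 0.30 was thus not particular to them.

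Of 10 markers of enterocytes, the absorptive cells of the gut that make such enzymes, none was called by either tool in footprints. Of these markers, 1 (Tsp2A) had an unadjusted p under 0.05 (all genes, 420 of 14368). Their summed footprints were 1093 to 1198 CPM in wild-type and 1158 to 1230.4 CPM in mutants. Their summed RNA was 2076 to 2169.8 CPM and 2052 to 2441 CPM. Vha16-1, a proton pump subunit made in many tissues, was the largest single contributor to both, with means of 1850 CPM in RNA and 648 CPM in footprints. The RNA sum therefore mostly followed Vha16-1, which also made up most of the footprint sum. Neither sum says much about enterocytes. The median log2 footprint change was 0.12 for enterocyte markers (6 genes), 0.16 for chorion genes of the egg shell (8 genes), 0.00 for yolk proteins (3 genes) and -0.24 for muscle genes (6 genes). In the chorion, yolk and muscle lists no gene was called in footprints by DESeq2 or edgeR, with 2, 0 and 1 genes at an unadjusted p under 0.05. The most abundant genes of these lists, Cp36, Yp1 and flr, had log2 footprint changes of 0.29, -0.00054 and -0.01. Early egg shell genes (7 genes, median 0.12) and markers of other gut cells (8 genes) also had no call in footprints by either tool, with 2 genes and 1 gene at an unadjusted p under 0.05, and their most abundant genes Vm26Aa and Alp4 had 0.10 and -0.53. The median of the other gut cell markers was -0.01 over the 2 genes with enough counts, Alp4 and Tk, and Tk had 0.50 (SE 0.46). In whole flies, which tissue these 2 values come from was not tested.

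The genes most like the 8 expressed members across the 11 libraries were rtet (r = 0.93 with the mean centred profile), CG10139 (0.90), CG15674 (0.90), Exd2 (0.89), Taf12 (0.88), a subunit of the general transcription factor TFIID, and qtc (0.88), of 6567 genes. They had mean RNA levels of 22.7 to 61.4 CPM, and none belongs to the digestive lists. This order rested on a few libraries. Without Ribo-Seq of wild-type replicate 2 and Polr3D EY/+ replicate 3 and RNA-Seq of Polr3D EY/+ replicate 1, a choice made after seeing the data, qtc was at rank 9 (r = 0.94), rtet at rank 61 (0.88) and the other 4 at ranks 203 to 594. The profile itself was lowest in Ribo-Seq of wild-type replicate 2 (-0.33) and highest in Ribo-Seq of Polr3D EY/+ replicate 3 (0.22), the 2 Ribo-Seq libraries with most male-marker footprints. The nearest Jonah gene outside the list, Jon65Ai, was at rank 34 (r = 0.81), and at rank 591 (0.66) without those 3 libraries.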

How the data were processed

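Ribo-Seq and RNA-Seq were made from whole female flies, and cycloheximide was added for Ribo-Seq per the labels. The authors trimmed reads with Cutadapt and quantified them with Salmon on a BDGP6 transcriptome that included noncoding RNAs; the deposited table holds whole-number counts for 28367 transcripts or other features. It had a column for 11 of 12 samples: RNA-Seq of wild-type replicate 3 was not analysed here. Transcripts were mapped to genes with the Ensembl annotation of the same assembly (28345 features matched, 22 did not) and summed. Protein-coding genes made up 1.90 to 3.67% of the Ribo-Seq counts and 99.0 to 99.2% of the RNA-Seq counts, so CPM were scaled to the protein-coding total.

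The main test was the study's model in DESeq2 1.42.0 (R 4.3.3), fitted to all genes in 10 libraries without wild-type replicate 3, with 6 coefficients and 4 residual degrees of freedom, and Benjamini-Hochberg adjustment over all genes tested; edgeR 4.0.16 was an alternative. Where the parametric dispersion curve failed, DESeq2 used a local regression. The scripts were tested on simulated data. In all, 19 alternatives were run, of which 3 (all 11 libraries with no block, edgeR with no block, and a crossed block) were chosen after seeing the data, as was a likeness ranking without 3 libraries. The members and gene lists were chosen with earlier results of these data known. Every member is named, and from each other list the genes called, up to 3 (all 4 of the male markers), and the gene with the highest RNA level, except the top male marker, which was near 0 in most libraries; CG8586 and genes with the lowest unadjusted p in a list were named after their values were seen. The replicate number was a block because the study's methods use it. Deviations of same-numbered samples had r = -0.54 and -0.69 in RNA and 0.00 and -0.11 in Ribo-Seq. With the wild-type numbers exchanged, r was 0.69 and 0.54 in RNA and 0.11 and -0.0018 in Ribo-Seq. Because the wild-type deviations mirror each other, these are the same values with the sign turned. Whether the numbers pair the samples could not be settled from them.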

Additional observations from a re-analysis of the deposited data

How the results depend on the processing

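Against the main fit, which called 135 genes in RNA, 52 genes in footprints and 41 genes by translation efficiency, counts moved by more than 1.5 times in several fits. RNA calls were 15 with edgeR, 23 with a low-count filter (mean below 10 in either assay), 66 with all 11 libraries, 41 with no replicate block, 3 with each assay alone, 42 with all 11 libraries and no block, and 32 with edgeR and no block. Footprint calls were 10 with that filter and 0 with Ribo-Seq alone. Calls in translation efficiency were 4 with edgeR, 1 with that filter, 10 with all 11 libraries, 7 with no replicate block, 5 with all 11 libraries and no block, 11 with edgeR and no block, and 10 with the numbers of wild-type replicates 1 and 2 exchanged in the block. Their split, 1 higher and 40 lower in the main fit, was 5 and 2 with no replicate block and 13 and 6 without wild-type replicate 2. Leaving out replicates 1 to 3 of a genotype in turn gave 5 to 50 calls in RNA, 2 to 33 for footprints and 0 to 19 for translation efficiency. With only RNA-Seq of Polr3D EY/+ replicate 1 left out the counts were 4, 24 and 2, and with only Ribo-Seq of Polr3D EY/+ replicate 2 left out they were 115, 16 and 15. Whether the replicate numbers pair the samples could not be settled, and RNA deviations were negatively correlated by number. With no replicate block Jon99Ci was called in footprints besides Jon25Biii (adjusted p = 0.0280) and Jon44E (0.0155), and also with the exchanged numbers (Jon99Ci 0.0962). With that filter Jon44E was called (0.0489) and Jon25Biii was not (0.105).

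Of the fitted changes of the members under the alternatives, 462 kept direction and side of the threshold, 30 changed sign, 14 lost a call and 4 gained one. None of the sign changes was a call. With no replicate block Jon66Ci changed sign in RNA (0.027) and footprints (0.080), and Jon99Fi in footprints (0.048). With edgeR and no block the same values were 0.038, 0.099 and 0.064. Jon66Ci footprints were 0.063 in Ribo-Seq alone and 0.0098 with the exchanged numbers. Jon66Ci had 0.027 in RNA with all 11 libraries and no block, and -0.25 in translation efficiency, or -0.084 with all 11 libraries and the block. With only RNA-Seq of Polr3D EY/+ replicate 1 left out Jon66Ci had 0.21 (RNA), 0.071 (footprints) and -0.14 (translation efficiency), and with only Ribo-Seq of Polr3D EY/+ replicate 2 left out it had -0.17 in translation efficiency. Leaving out replicates gave ranges that included 0 for RNA of Jon25Bi (-0.12 to 0.27), Jon25Bii (-0.36 to 0.11), Jon65Aiii (-0.29 to 0.14), Jon65Aiv (-0.17 to 0.057) and Jon66Ci (-0.74 to 0.49). The same held for footprints of Jon25Bii (-0.017 to 0.80), Jon66Ci (-0.84 to 0.93) and Jon99Fi (-0.20 to 0.099), and for translation efficiency of Jon25Bi (-0.093 to 0.61), Jon66Ci (-0.42 to 0.73) and Jon99Fi (-0.35 to 0.036). The cause was not tested. Of the member levels, 56 of 190 moved by more than 1 SD, all of them under another scaling: 38 of 40 with TMM factors and 18 of 40 per total of all features, which rescale every gene of a library alike. In groups of so few libraries, leaving out 1 library cannot move a mean by more than 1 SD. Those fits therefore could not show whether the levels were stable. Low counts limit Jon66Ci, mainly in RNA, and Jon66Cii in both assays.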
